A study of Mus musculus with 14 samples.

Results

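Polycomb repressive complex 1 (PRC1) genes were followed through the haematopoietic stem and progenitor cells of mouse bone marrow chimeras made with Dpy30 KO or control donor marrow. The 10 genes were taken by symbol: the RING ligase genes Ring1 and Rnf2, the PCGF genes Bmi1, Pcgf2, Pcgf5 and Pcgf6, the chromobox genes Cbx2, Cbx6 and Cbx7, and the polyhomeotic gene Phc3. All 10 were found among the 38926 gene rows of the LSK and MyePro libraries, and all 10 among the 39179 gene rows of the LT-HSC libraries. KO cells were Mx1-Cre; Dpy30F/- and control cells Mx1-Cre; Dpy30F/+, so both genotypes carried the interferon-inducible Cre and both received pIpC, the interferon inducer that switches it on. Marrow of each genotype (CD45.2+) was mixed with C57Bl/6J competitor marrow (CD45.1+) and placed in irradiated CD45.1+ recipients. Recipients received 4 injections of pIpC at 7.5 µg/g, the first of them 7 weeks after the transplant, and 2 weeks passed between the last injection and the sort. LSK cells are the lineage-negative, Sca1+, Kit+ stem and progenitor fraction, MyePro is the labels' name for a myeloid progenitor population, and LT-HSC are long-term haematopoietic stem cells. There was 1 KO and 1 control library of LSK and of MyePro, each from 2 to 3 pooled mice, and 2 libraries labelled KO and 2 control libraries of LT-HSC, each from 7 to 9 pooled mice. Cre in the Mx1-Cre line acts in many cell types, and deletion need not be complete in every cell.

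PRC1 places a single ubiquitin on histone H2A and compacts chromatin at genes that cells keep silent. A RING ligase and a PCGF protein form its core, and the PCGF protein decides which complex is built. Canonical PRC1, built on Bmi1 or Pcgf2, also carries a chromobox protein that reads the methyl mark left by Polycomb repressive complex 2 and a polyhomeotic protein that links complexes to each other. Variant PRC1, built on other PCGF proteins such as Pcgf5 and Pcgf6, uses other partners. Bmi1 is well known for its need in the self-renewal of blood stem cells. Dpy30 is a core subunit of the SET1 and MLL enzyme complexes that put the activating methyl mark of promoters on histone H3.

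The 8 RNA libraries held 6130320 (KO LSK) to 85499797 (the first library labelled KO LT-HSC) counts over gene rows. All levels are CPM (counts scaled to a library total of 1000000) with the total corrected by TMM, a method for libraries dominated by different genes. LT-HSC were scaled apart from LSK and MyePro. Dpy30 had 42.3 CPM in KO LSK against 78.0 CPM in control LSK, and 51.8 CPM in KO MyePro against 114 CPM in control MyePro. In LT-HSC, Dpy30 had 14.1 and 4.67 CPM in the libraries labelled KO and 12.9 and 8.43 CPM in the control libraries, so that the first library labelled KO was above both controls on this scale. By uncorrected library totals the order turned, with 8.18 and 5.88 CPM in the libraries labelled KO, both below the 15.6 and 9.59 CPM in the control libraries, and the median log2 fold change of all genes moved from 0.00 to -0.35. Xist had 2165 and 1503.6 CPM in the libraries labelled KO LT-HSC and 239 and 150 CPM in control LT-HSC, and 4 Y-linked genes summed to 1.45 and 1.91 CPM in the libraries labelled KO LT-HSC against 80.9 and 61.0 CPM in control LT-HSC, so sex-linked expression differed with the genotype label. In LT-HSC, sex-linked expression and the genotype label cannot be told apart, and the part of sex-linked expression in the LT-HSC results was not tested. In the LSK and MyePro libraries, Xist had 0.136 to 0.616 CPM and the Y-linked genes summed to 128 to 155 CPM. All 10 PRC1 genes are autosomal. Mitochondrial ribosomal RNA took 62.4% and 49.3% of the counts of the libraries labelled KO LT-HSC and 45.1% and 49.6% of the control LT-HSC counts. CPM depends on transcript length, so a gene is compared with itself across libraries and not with another gene.

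In KO LSK and KO MyePro cells, transcripts of Bmi1 and Rnf2 were higher than in control cells and those of Cbx6, Cbx2 and Pcgf2 were lower. The higher values were within a factor of 2. In KO LSK, 0 of 10 genes were past 2-fold higher, against 4.98% of 10311 genes measured, and 2 (Pcgf2 and Cbx6) were past 2-fold lower, against 5.39%. In KO MyePro, 8 of the 10 genes reached the mean of 5 CPM needed to be counted. Of these, 0 were past 2-fold higher, against 11.3% of 10244 genes, and 1 (Cbx2) was past 2-fold lower, against 7.99%. The median log2 ratio of the counted PRC1 genes was -0.46 in KO LSK, against -0.04 over all genes, and -0.31 in KO MyePro, against -0.08 over all genes. With 1 library per group there was no replicate check and no test, and the 95% intervals given for LSK and MyePro cover counting error only. Bulk libraries cannot tell fewer cells of a type from less RNA per cell.

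In the libraries labelled KO LT-HSC, 0 of the 10 genes passed the test against control LT-HSC, where 2 of 12844 genes passed, or 0.0156% (edgeR quasi-likelihood test, two-sided, Benjamini-Hochberg adjusted p under 0.05). Every PRC1 gene had an adjusted p of 0.999 in that test. An unadjusted p under 0.05 was found for 0 of the 10, against 294 of 12844 genes. DESeq2 called 14 genes and 0 of the 10. Pcgf2 and Pcgf6 were higher in both libraries labelled KO than in both controls, a pattern of 13.8% of genes, and Pcgf5 was lower in both, a pattern of 13.9%. By uncorrected library totals, Pcgf5 was still lower in both, while Pcgf2 and Pcgf6 overlapped between the groups. The values of the other 7 genes overlapped on either scale between the groups.

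**Figure D1:**
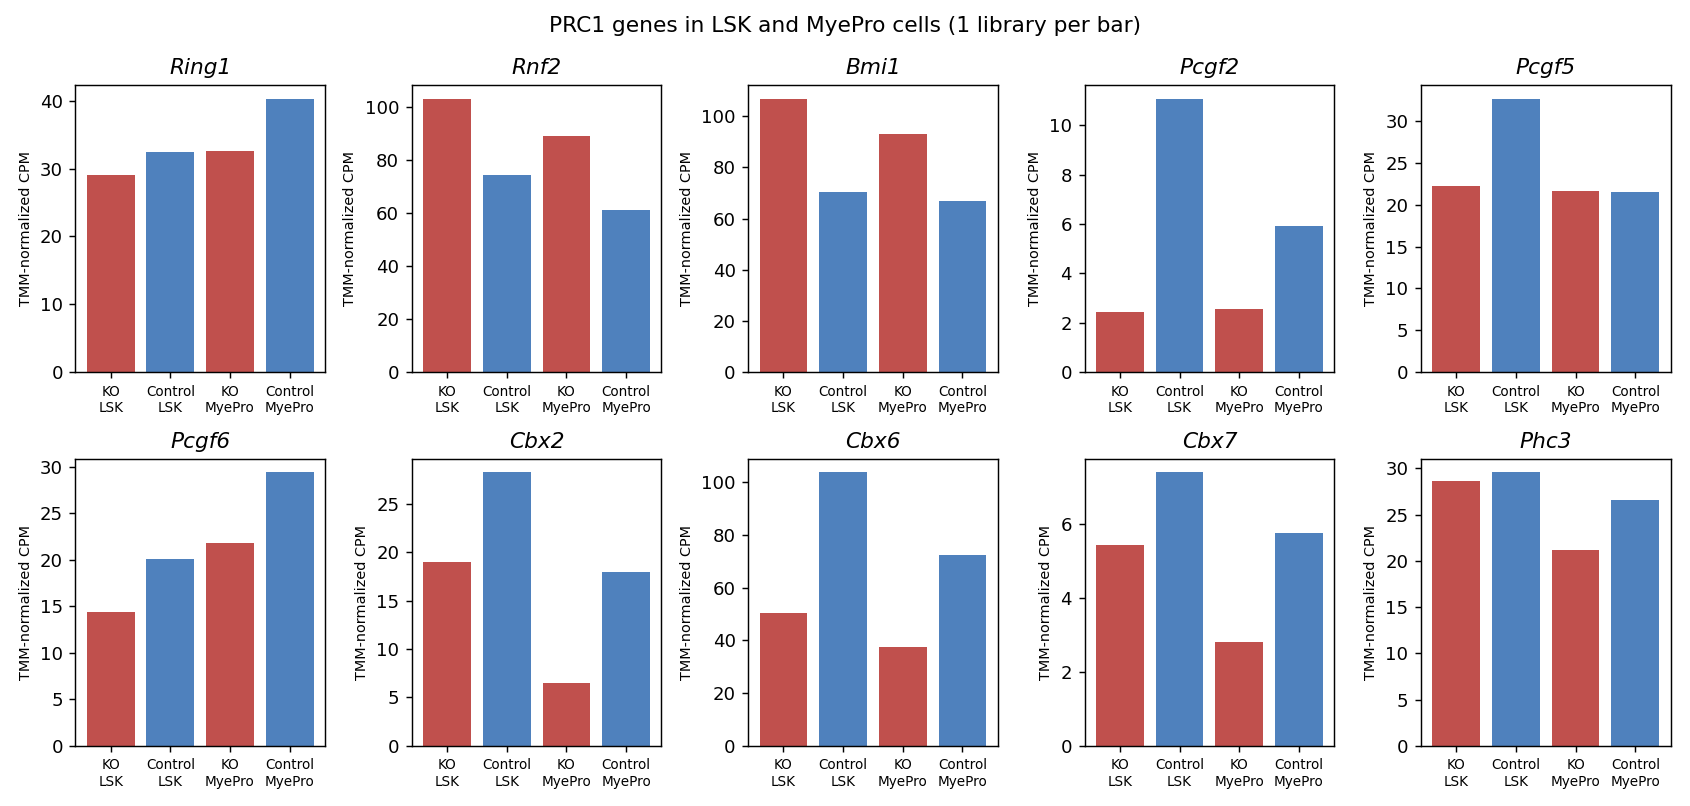
Level of each PRC1 gene in KO LSK, control LSK, KO MyePro and control MyePro (y axis, TMM-normalized CPM from 0, 1 library per bar, each gene on its own scale). Rnf2 and Bmi1 bars are taller in KO than in control cells of both populations, and Pcgf2, Cbx2, Cbx6 and Cbx7 bars are shorter.

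Gene positions are from RefSeq, build GRCm38.p6. Rnf2 (chr1:151469398-151500991) and Ring1 encode the alternative E3 ligases of PRC1, of which Rnf2 (also called Ring1b) is the main H2A ubiquitin ligase in mouse embryonic stem cells. Rnf2 had 103 CPM in KO LSK against 74.1 CPM in control LSK, a log2 ratio of 0.48 (interval 0.34 to 0.62). In MyePro it had 89.1 CPM in KO cells against 61.0 CPM in control cells, a log2 ratio of 0.55 (0.43 to 0.67). Both KO libraries were thus above both control libraries. LSK and MyePro are different populations and not replicates, and the share of all genes in this order is not given here. In LT-HSC, Rnf2 had 18.5 and 19.6 CPM in the libraries labelled KO and 23.7 and 18.8 CPM in the control libraries. The LT-HSC groups overlapped, and the log2 fold change was -0.15 ± 0.320 (SE, n = 2 libraries per group).

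Ring1 (chr17:34020792-34024680) differed less. It had 29.0 CPM in KO LSK against 32.5 CPM in control LSK, a log2 ratio of -0.16 whose interval, -0.41 to 0.08, holds 0. In MyePro, Ring1 had 32.6 CPM in KO cells against 40.3 CPM in control cells, a log2 ratio of -0.31 (-0.49 to -0.13). Its LT-HSC values were 9.23 and 7.02 CPM in the libraries labelled KO and 7.62 and 6.65 CPM in the control libraries, which overlap. The number of Rnf2 counts per Ring1 count, which does not depend on normalization, was 3.55 (3.02 to 4.19) in KO LSK against 2.28 (2.05 to 2.55) in control LSK. In MyePro it was 2.74 (2.43 to 3.09) in KO cells against 1.51 (1.38 to 1.65) in control cells. In LT-HSC it was 2.01 and 2.80 in the libraries labelled KO and 3.11 and 2.82 in the control libraries. This pair was chosen after the values were seen.

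Bmi1 (chr2:18677018-18686629) and Pcgf2 (also called Mel18, chr11:97688821-97702434) encode closely related PCGF proteins that take the same place in canonical PRC1, and they lay on opposite sides of control in KO LSK and KO MyePro. Bmi1 had 107 CPM in KO LSK against 70.5 CPM in control LSK, a log2 ratio of 0.60 (0.46 to 0.74). It had 92.9 CPM in KO MyePro against 67.0 CPM in control MyePro, a log2 ratio of 0.47 (0.35 to 0.59). As with Rnf2, both KO libraries were above both control libraries, again without a share of all genes to set beside this order. In LT-HSC, Bmi1 had 21.2 and 24.4 CPM in the libraries labelled KO and 18.2 and 42.0 CPM in the control libraries, a log2 fold change of -0.40 ± 0.427 (SE, n = 2 libraries per group). The 2 control LT-HSC libraries lay on either side of both KO values, so the groups overlapped.

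Pcgf2 was the furthest below control in KO LSK among the 10 genes, at 2.42 CPM (16 counts) against 11.1 CPM (163 counts) in control LSK. The log2 ratio was -2.13 (-3.04 to -1.45), which is 4.37-fold lower. In MyePro, Pcgf2 had 2.55 CPM (29 counts) in KO cells against 5.92 CPM (118 counts) in control cells, a log2 ratio of -1.17 (-1.85 to -0.62). This pair of libraries averaged below the 5 CPM needed to be counted. In LT-HSC the direction was the other one, with 8.14 and 5.69 CPM in the libraries labelled KO and 5.66 and 3.26 CPM in the control libraries. The lower KO and the higher control value were nearly equal, and the log2 fold change was 0.63 ± 0.573 (SE, n = 2 libraries per group; unadjusted p = 0.305 in the edgeR quasi-likelihood test). By uncorrected library totals the values overlapped, at 4.73 and 7.17 CPM in the libraries labelled KO and 6.81 and 3.70 CPM in the control libraries, and the log2 fold change was 0.18. The difference between LT-HSC and the other populations was not tested, and the libraries differ in amplification, annotation and sex-linked expression.

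Bmi1 counts per Pcgf2 count set the paralogs side by side within each library. There were 44.2 (27.02 to 77.7) in KO LSK against 6.36 (5.39 to 7.55) in control LSK, and 36.4 (25.2 to 54.6) in KO MyePro against 11.3 (9.37 to 13.8) in control MyePro. In LT-HSC there were 2.61 and 4.28 in the libraries labelled KO and 3.22 and 12.9 in the control libraries. The intervals of KO and control were apart in LSK and in MyePro, while the LT-HSC values overlapped. This pair, too, was chosen after the values were seen.

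Pcgf5 (chr19:36348329-36460970) and Pcgf6 (chr19:47033617-47050939) encode PCGF subunits of variant PRC1, of which Pcgf6 is part of a complex with E2f6, Mga and L3mbtl2. Pcgf5 had 22.2 CPM in KO LSK against 32.7 CPM in control LSK, a log2 ratio of -0.55 (-0.83 to -0.29). In MyePro it had 21.7 CPM in KO cells and 21.5 CPM in control cells, a log2 ratio of 0.01 (-0.22 to 0.24). Pcgf5 was thus highest in control LSK, and the other 3 libraries did not differ beyond counting error. In LT-HSC it had 13.2 and 10.4 CPM in the libraries labelled KO and 19.3 and 17.8 CPM in the control libraries. These groups did not overlap, and the log2 fold change of -0.65 ± 0.355 (SE, n = 2 libraries per group) had the smallest unadjusted p of the 10 genes, 0.109 in the edgeR quasi-likelihood test.

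Pcgf6 had 14.4 CPM in KO LSK against 20.1 CPM in control LSK, a log2 ratio of -0.48 (-0.83 to -0.15). It had 21.8 CPM in KO MyePro against 29.4 CPM in control MyePro, a log2 ratio of -0.43 (-0.65 to -0.21). The KO value was about equally far below control in both populations. In LT-HSC it had 10.9 and 9.01 CPM in the libraries labelled KO and 8.74 and 4.55 CPM in the control libraries, a log2 fold change of 0.58 ± 0.515 (SE, n = 2 libraries per group). By uncorrected library totals the values overlapped, at 6.33 and 11.3 CPM in the libraries labelled KO and 10.53 and 5.18 CPM in the control libraries, and the log2 fold change was 0.17.

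The chromobox genes were below control in KO LSK and KO MyePro in all 6 comparisons. Cbx6 (chr15:79823898-79834333), which encodes a reader of the Polycomb methyl mark, had 50.5 CPM in KO LSK against 104 CPM in control LSK, a log2 ratio of -1.04 (-1.21 to -0.87). In MyePro it had 37.7 CPM in KO cells against 72.6 CPM in control cells, a log2 ratio of -0.94 (-1.11 to -0.79). The LSK value was just past 2-fold and the MyePro value just inside it, and the difference between them, 0.09, had an interval of -0.14 to 0.32. All 4 libraries differed from their neighbours in level beyond counting error, with both KO libraries below both controls. For this order, too, the share of all genes is not given. In LT-HSC, Cbx6 had 22.4 and 17.8 CPM in the libraries labelled KO and 21.8 and 11.7 CPM in the control libraries, which overlap, and the log2 fold change was 0.26 ± 0.406 (SE, n = 2 libraries per group). In the RefSeq annotation Cbx6 overlaps Npcd, which had 0 counts in all 4 LSK and MyePro libraries.

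Cbx2 (chr11:119023019-119031275) encodes the chromobox protein best known for compacting nucleosomes. It had 19.1 CPM in KO LSK against 28.3 CPM in control LSK, a log2 ratio of -0.57 (-0.87 to -0.28). The gap was wider in MyePro, with 6.51 CPM in KO cells against 18.0 CPM in control cells, a log2 ratio of -1.45 (-1.85 to -1.10) or 2.73-fold lower. The KO log2 ratio in MyePro minus that in LSK was -0.88 (-1.34 to -0.42), the widest negative difference of the 10 genes. In LT-HSC it had 4.50 and 4.51 CPM in the libraries labelled KO and 9.02 and 4.18 CPM in the control libraries. The KO values were nearly identical and lay between the controls.

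Cbx7 (chr15:79915804-79971143) encodes a chromobox protein that holds back differentiation in mouse blood and embryonic stem cells. It had 5.44 CPM (36 counts) in KO LSK against 7.41 CPM (109 counts) in control LSK, a log2 ratio of -0.43 whose interval, -1.03 to 0.11, holds 0. In MyePro it had 2.82 CPM (32 counts) in KO cells against 5.77 CPM (115 counts) in control cells, a log2 ratio of -0.996 (-1.65 to -0.46), on a mean below the 5 CPM needed to be counted. In LT-HSC it had 5.32 and 3.21 CPM in the libraries labelled KO and 9.39 and 3.05 CPM in the control libraries, which overlap. Cbx7 overlaps Apobec3 in the annotation. Apobec3 had 1755 counts in KO LSK against 4099 in control LSK and 1950 in KO MyePro against 5936 in control MyePro, and the strand setting of the counting is not given in the sources used here.

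Phc3 (chr3:30899295-30969479) encodes a polyhomeotic subunit whose SAM domain joins PRC1 particles into chains. It had 28.6 CPM in KO LSK and 29.6 CPM in control LSK, a log2 ratio of -0.05 (-0.30 to 0.20). In MyePro, Phc3 had 21.2 CPM in KO cells against 26.5 CPM in control cells, a log2 ratio of -0.32 (-0.55 to -0.10). KO MyePro was the lowest of the 4 libraries, and the other 3 did not differ beyond counting error. Phc3 had 64.2 and 86.0 CPM in the libraries labelled KO LT-HSC and 74.6 and 88.5 CPM in control LT-HSC, a log2 fold change of -0.12 ± 0.273 (SE, n = 2 libraries per group).

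**Figure D2:**
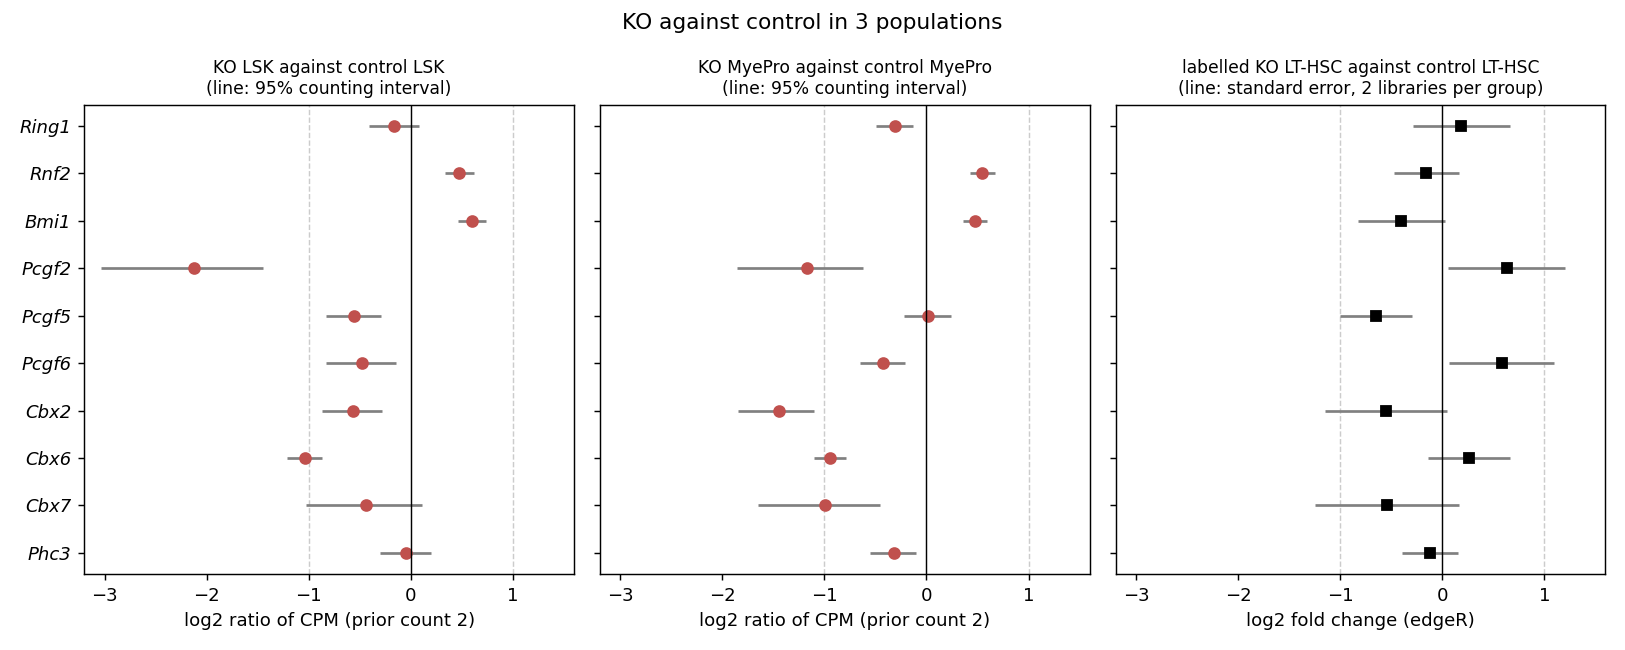
KO against control for each PRC1 gene in LSK, MyePro and LT-HSC (x axis, log2 ratio or log2 fold change, dashed lines at 2-fold; lines are 95% counting intervals in the first 2 panels and standard errors in the third). Rnf2 and Bmi1 lie right of 0 in LSK and MyePro, Pcgf2 and Cbx6 lie near or past -1 there, and the LT-HSC points lie between -0.65 and 0.63.

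The sign of the KO ratio was the same in LSK and MyePro for 9 of the 10 genes. Among genes counted in both populations the share was 7 of 8 PRC1 genes, or 87.5%, against 77.8% of 9979 genes, with separate KO and control libraries in each population. The exception was Pcgf5. For 3 genes, the KO effect differed between the populations beyond counting error, with no share of all genes given beside this count. They were Cbx2 (above), Pcgf5 with a MyePro minus LSK difference of 0.57 (0.22 to 0.91), and Pcgf2 with 0.96 (0.02 to 1.90). The Pcgf2 interval barely left out 0. It rests on 16 counts in KO LSK and 29 in KO MyePro, and the MyePro mean was below 5 CPM.

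**Figure D3:**
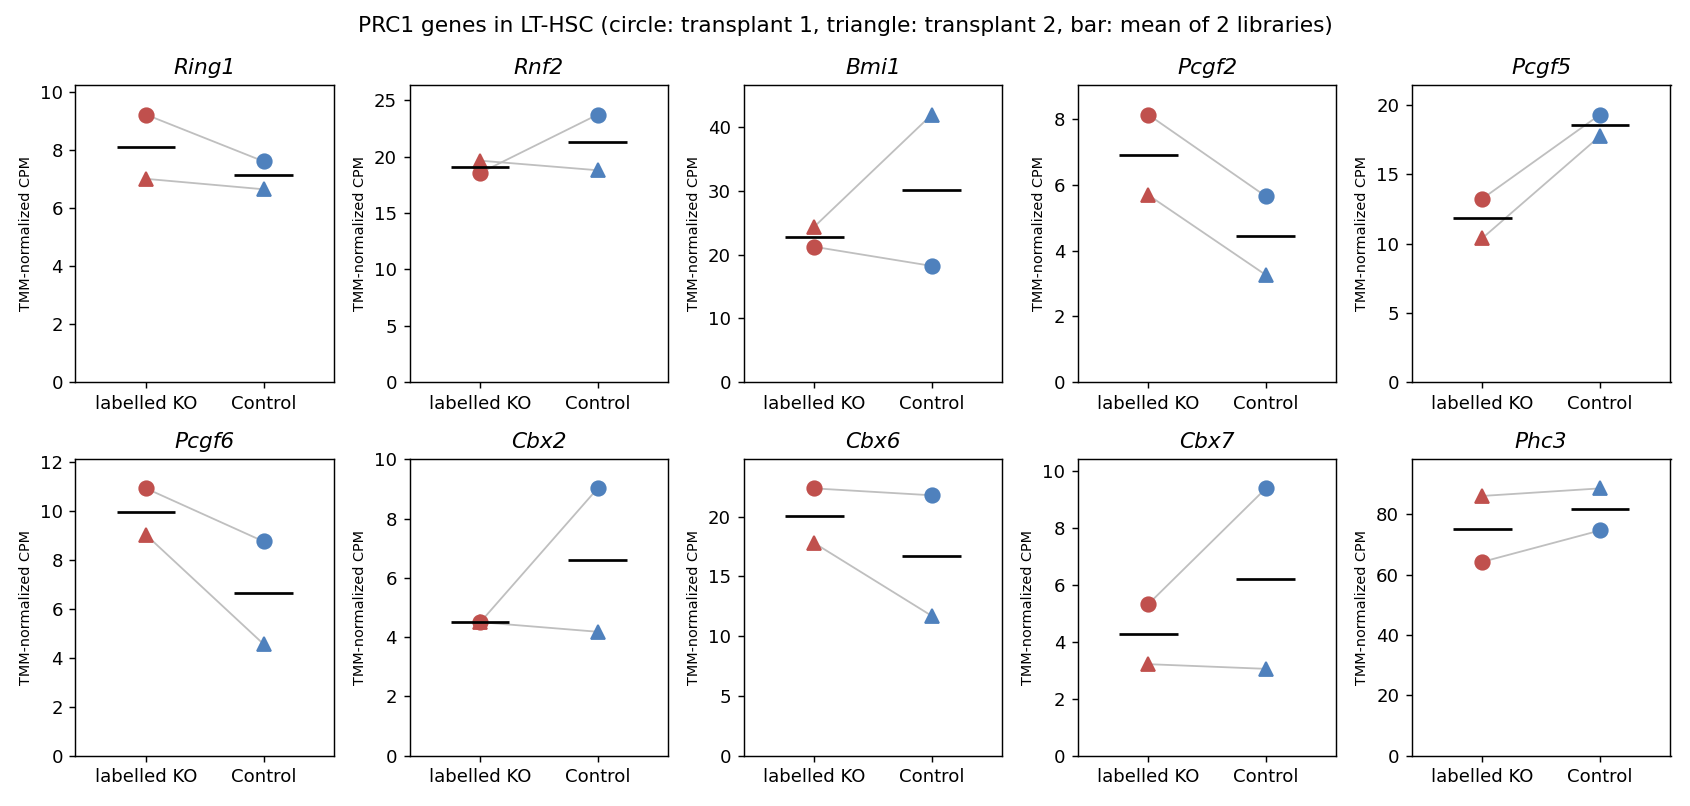
Level of each PRC1 gene in LT-HSC libraries labelled KO and in control LT-HSC (y axis, TMM-normalized CPM from 0, each gene on its own scale; circles are transplant 1, triangles transplant 2, grey lines join libraries of the same transplant, black bars are means of 2 libraries). Only Pcgf2, Pcgf6 and Pcgf5 have groups that do not overlap on this scale, and Bmi1, Cbx2 and Cbx7 have widely spread controls.

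In LT-HSC, the control libraries differed from each other by more than the group means did for most of the genes. Mean CPM was 6.92 ± 1.73 for Pcgf2 in the libraries labelled KO and 4.46 ± 1.70 in control LT-HSC (SD, n = 2 each). For Pcgf5 it was 11.8 ± 2.02 in the libraries labelled KO and 18.5 ± 1.10 in control LT-HSC (SD, n = 2 each), and for Bmi1 it was 22.8 ± 2.22 in the libraries labelled KO and 30.1 ± 16.8 in control LT-HSC (SD, n = 2 each). The controls of Bmi1 thus differed more from each other than from the KO mean. Libraries of the same number came from the same transplant. Within transplants 1 and 2, KO minus control in log2 CPM was 0.22 and -0.78 for Bmi1, 0.52 and 0.79 for Pcgf2, -0.54 and -0.77 for Pcgf5, and 0.32 and 0.98 for Pcgf6. It was -0.999 and 0.10 for Cbx2 and -0.81 and 0.07 for Cbx7, so these chromobox genes were lower in the library labelled KO in the first transplant only. Without the first library labelled KO, whose Dpy30 was not lower than in the controls on the TMM scale but was lower by library totals, the log2 fold change was -0.30 for Bmi1, 0.35 for Pcgf2, -0.84 for Pcgf5, 0.44 for Pcgf6, -0.025 for Ring1, -0.11 for Rnf2, -0.55 for Cbx2, 0.087 for Cbx6, -0.95 for Cbx7 and 0.077 for Phc3. Still 0 of the 10 genes passed the Benjamini-Hochberg-adjusted quasi-likelihood test of edgeR, and Ring1 and Phc3 changed sign.

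Between control MyePro and control LSK, 5 of the 10 PRC1 genes were lower in MyePro beyond counting error (Pcgf2, Cbx2, Pcgf5, Cbx6 and Rnf2). Another 2 were higher (Pcgf6 and Ring1), and 3 were neither. The share of all genes beyond counting error is not given here, so these counts have no background beside them. A log2 ratio as small as -0.28, that of Rnf2, was beyond counting error. In control MyePro against control LSK, 0 of 10 genes were past 2-fold higher, against 3.01% of 10059 genes, and 0 were past 2-fold lower, against 7.21%. The median was -0.32 on the log2 scale, against 0.05 over all genes, and 8 of the 10 were below 0, against 44.9% of all genes. Pcgf2, at 5.92 CPM in control MyePro against 11.1 CPM in control LSK, had the most negative ratio, -0.89 (-1.26 to -0.55). Cbx2 followed with -0.65 (-0.86 to -0.44), Pcgf5 with -0.60 (-0.80 to -0.42), Cbx6 with -0.52 (-0.62 to -0.41) and Rnf2 with -0.28 (-0.40 to -0.16). Pcgf6 was higher in control MyePro, by 0.54 (0.34 to 0.75), as was Ring1, by 0.31 (0.15 to 0.48). The intervals of Bmi1, Cbx7 and Phc3 held 0.

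KO cells had a partly different order. In KO MyePro against KO LSK, 8 genes reached the mean of 5 CPM. Of these, 0 were past 2-fold higher, against 3.15% of 10360 genes, and 1 was past 2-fold lower, against 1.53%. That gene was Cbx2, at 6.51 CPM in KO MyePro against 19.1 CPM in KO LSK, a log2 ratio of -1.53 (-1.98 to -1.12). Pcgf6 was higher in KO MyePro, by 0.60 (0.26 to 0.96), much as in control cells. Pcgf2 and Pcgf5 were lower in control MyePro than in control LSK. In KO cells they had log2 ratios of 0.07 (-0.85 to 1.06) and -0.04 (-0.34 to 0.27), both near 0. The Pcgf2 value rests on 29 counts in KO MyePro and 16 in KO LSK, with a mean below 5 CPM. Its wide interval overlaps that of control cells, -1.26 to -0.55, so it cannot tell the genotypes apart. Cbx6 was lower in KO MyePro by a log2 ratio of -0.42 (-0.63 to -0.21), close to its ratio in control cells. The intervals of Bmi1, Cbx7 and Phc3, which held 0 in control cells, lay below 0 in KO cells. Their log2 ratios were -0.20 (-0.34 to -0.06) for Bmi1, -0.91 (-1.68 to -0.22) for Cbx7 and -0.43 (-0.71 to -0.15) for Phc3. The mean of Cbx7 was below 5 CPM.

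**Figure D4:**
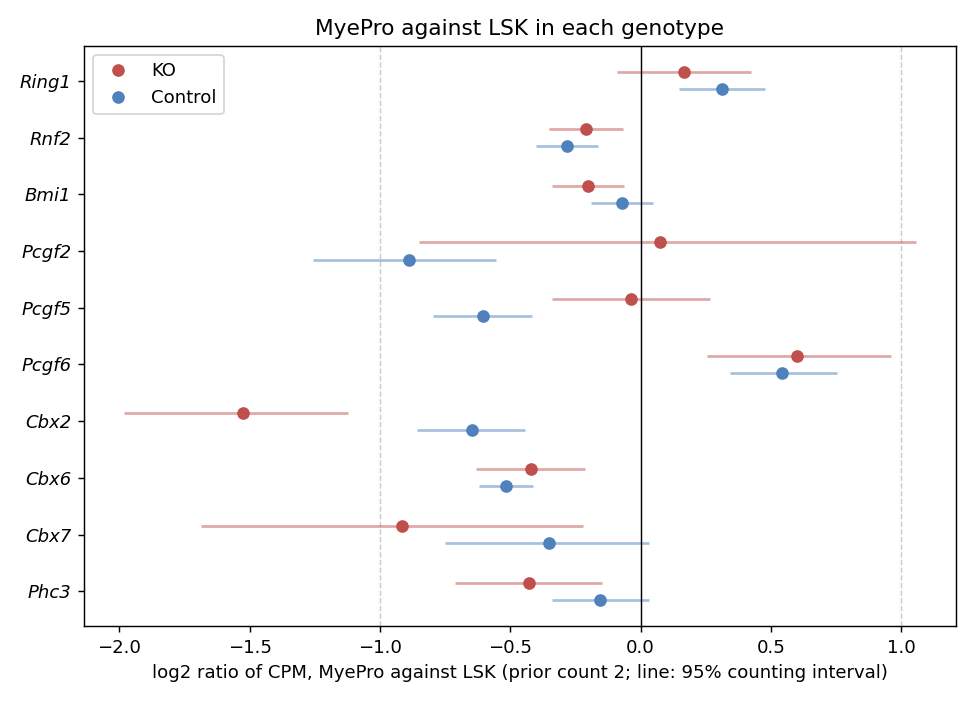
MyePro against LSK for each PRC1 gene in KO and control cells (x axis, log2 ratio of CPM with 95% counting intervals, dashed lines at 2-fold). Pcgf6 lies right of 0 in both genotypes, and Cbx2 in KO cells, at -1.53, is the point past the dashed line.

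The sequence just before the annotated starts describes a further difference among these genes. Windows of the 250 bases before a start were available for 9 of the 10 genes (11 windows, RefSeq, GRCm38.p6), and 8 of the 11 were CpG-rich, meaning a GC content over 50% and an observed-to-expected CpG ratio over 0.6. Of all 32851 windows of that length, 30.8% were CpG-rich. The median GC content was 68% in the PRC1 windows against 52.4% in all windows, and the median CpG ratio was 0.71 in the PRC1 windows against 0.37 in all windows. Shown here are Bmi1 and Rnf2, which were higher in KO LSK and MyePro, and Cbx6 and Pcgf2, which were lower, to set their CpG content side by side. They read 5′ to 3′ on the strand of the gene, with CG dinucleotides in capitals. Bmi1 lies at chr2:18676768-18677017 (+), Rnf2 at chr1:151500992-151501241 (-), Cbx6 at chr15:79834334-79834583 (-) and Pcgf2 at chr11:97699649-97699898 (-).
Bmi1: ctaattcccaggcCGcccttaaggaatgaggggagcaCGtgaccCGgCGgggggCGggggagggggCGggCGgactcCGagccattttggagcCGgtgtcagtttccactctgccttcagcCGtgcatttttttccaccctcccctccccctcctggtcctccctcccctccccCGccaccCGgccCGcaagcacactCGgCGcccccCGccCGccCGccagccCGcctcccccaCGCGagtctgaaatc
Rnf2: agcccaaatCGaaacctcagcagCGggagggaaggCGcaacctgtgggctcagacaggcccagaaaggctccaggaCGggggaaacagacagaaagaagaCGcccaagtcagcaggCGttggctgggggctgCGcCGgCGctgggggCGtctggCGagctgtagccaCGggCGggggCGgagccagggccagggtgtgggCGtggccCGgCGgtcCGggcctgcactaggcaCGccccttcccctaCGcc
Cbx6: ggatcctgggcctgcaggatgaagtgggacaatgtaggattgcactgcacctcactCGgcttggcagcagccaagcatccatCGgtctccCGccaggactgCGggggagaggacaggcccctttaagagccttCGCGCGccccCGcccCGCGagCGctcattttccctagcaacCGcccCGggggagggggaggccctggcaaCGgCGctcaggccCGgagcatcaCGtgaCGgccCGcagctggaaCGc
Pcgf2: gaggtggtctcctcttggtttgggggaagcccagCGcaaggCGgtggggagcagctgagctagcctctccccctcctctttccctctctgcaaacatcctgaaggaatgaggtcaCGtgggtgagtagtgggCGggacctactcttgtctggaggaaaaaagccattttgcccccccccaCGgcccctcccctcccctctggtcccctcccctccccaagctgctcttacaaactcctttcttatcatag
The windows of Bmi1, Rnf2 and Cbx6 held 21, 20 and 20 CG dinucleotides, with CpG ratios of 0.71, 0.66 and 0.69, whereas that of Pcgf2 held 5, with a ratio of 0.23. Cbx6 was thus about as CpG-rich as Bmi1 and Rnf2. The Pcgf2 window lies inside the annotated gene span, upstream of an internal start.

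Other PRC1 subunits were taken from a list of 20 genes. In KO LSK, 0 of 19 counted were past 2-fold higher, against 4.98% of all genes, and 1 was past 2-fold lower, against 5.39%. It was Bcorl1, which encodes a corepressor of a variant PRC1, at 10.4 CPM in KO LSK against 22.9 CPM in control LSK (log2 ratio -1.12, interval -1.53 to -0.76). In KO MyePro, 0 of 19 were past 2-fold higher, against 11.3% of all genes, and 3 past 2-fold lower, against 7.99%. E2f6, a repressor of the complex built on Pcgf6, had 37.0 CPM in KO MyePro against 85.0 CPM in control MyePro (-1.20, -1.36 to -1.05). Usp7, a deubiquitinase bound to PRC1, had 136 CPM in KO MyePro against 290 CPM in control MyePro (-1.09, -1.17 to -1.01), and Kdm2b, which brings a variant PRC1 to CpG islands, had 64.2 CPM in KO MyePro against 135 CPM in control MyePro (-1.07, -1.20 to -0.96). These 3 were within 2-fold of control in KO LSK, with log2 ratios of -0.68, -0.62 and -0.67, and the gap was wider in MyePro for each. Auts2, a partner of the PRC1 built on Pcgf5, had 8.45 CPM in KO MyePro against 3.63 CPM in KO LSK and 1.25 CPM in control MyePro, and its MyePro ratio to control was not counted because the mean was below 5 CPM. In control MyePro against control LSK, 0 of 19 were past 2-fold in either direction, against 3.01% of all genes higher and 7.21% lower, with Dcaf7 at -0.07 and Usp7 at 0.31. In LT-HSC, 0 of 20 passed the Benjamini-Hochberg-adjusted quasi-likelihood test of edgeR, against 0.0156% of all genes.

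Enzymes that remove the PRC1 mark, or belong to complexes that do, were held in a list of 8 H2A deubiquitinase genes. None of the 8 was past 2-fold in LSK or MyePro in KO against control or in MyePro against LSK, where between 1.53% and 11.3% of all genes were past it in each direction, so that 0 of 8 is near the background. In LT-HSC, 0 of 8 passed the Benjamini-Hochberg-adjusted quasi-likelihood test of edgeR, against 0.0156% of all genes. In the same test, 0 of 8 had an unadjusted p under 0.05, against 294 of 12844 genes. Bap1, the catalytic subunit of the PR-DUB complex, had 102 CPM in KO LSK against 112 CPM in control LSK and 101 CPM in KO MyePro against 110 CPM in control MyePro. Asxl1, its cofactor, had 134 CPM in KO LSK against 149 CPM in control LSK (-0.16, -0.27 to -0.04) and 110 CPM in KO MyePro against 131 CPM in control MyePro (-0.25, -0.34 to -0.15). The list's median was -0.24 in KO LSK and -0.42 in KO MyePro, where the median of all genes was -0.04 in KO LSK and -0.08 in KO MyePro.

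**Figure D5:**
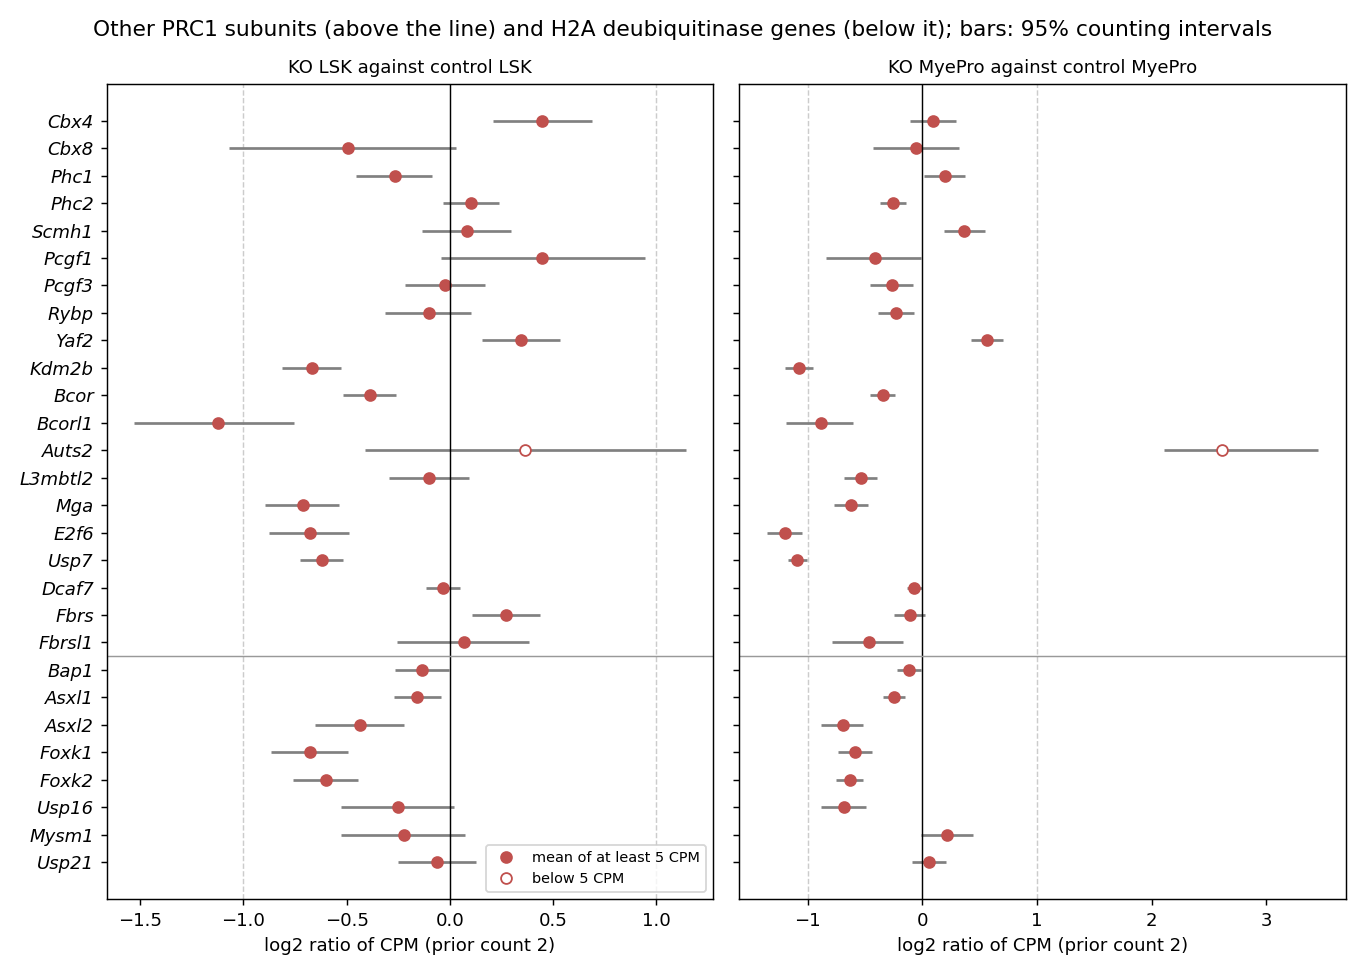
KO against control in LSK and MyePro for the other PRC1 subunits (above the line) and the H2A deubiquitinase genes (below it), as log2 ratios of CPM with 95% counting intervals (x axis, scales differ between panels). Filled points reach the mean of 5 CPM. Kdm2b, E2f6 and Usp7 are past -1 in MyePro, and Auts2 is an open point far to the right.

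Loci known as targets of PRC1 were a list of 14. In KO LSK, 8 were counted, with 2 past 2-fold higher, against 4.98% of all genes, and 3 past 2-fold lower, against 5.39%. Id2, an inhibitor of helix-loop-helix factors, had 74.4 CPM in KO LSK against 18.6 CPM in control LSK, and Hoxb4, a homeobox factor of stem cells, had 8.17 CPM in KO LSK against 2.72 CPM in control LSK. Homeobox genes of the Hoxa cluster were lower: Hoxa9 had 3.63 CPM in KO LSK against 41.5 CPM in control LSK (-3.46, -4.17 to -2.93), and Hoxa10 had 0.605 CPM in KO LSK against 16.0 CPM in control LSK. In KO MyePro, 5 were counted, with 2 past 2-fold higher, against 11.3% of all genes, and 2 past 2-fold lower, against 7.99%. The higher ones were Id2 and Meis1, a cofactor of Hox proteins, and the lower ones Hoxa9 and Hoxa7. Meis1 had 76.4 CPM in KO MyePro against 25.8 CPM in control MyePro, while in LSK it had 86.6 CPM in KO cells against 159 CPM in control cells. Target loci thus lay on both sides of control. Cdkn2a, the cell-cycle inhibitor locus best known as a target of Bmi1, had 3 counts in KO LSK against 4 in control LSK and 8 counts in KO MyePro against 2 in control MyePro, too few to be counted, and 0 counts in all 4 LT-HSC libraries. The log2 ratio intervals were wide, -2.03 to 3.30 in LSK and 0.49 to 6.08 in MyePro. Control MyePro had 4 of 7 target loci past 2-fold lower than control LSK, against 7.21% of all genes, Gata3 and Meis1 among them (-3.01 and -2.61). KO MyePro had 1 of 5, Gata3 (-1.82), past 2-fold lower than KO LSK, against 1.53%. In LT-HSC, where 0.0156% of all genes passed, 0 of 12 passed the Benjamini-Hochberg-adjusted quasi-likelihood test of edgeR.

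Markers of other cell types moved with the KO in the same libraries, and their part in the PRC1 results was not tested. The summed level of 8 erythroid markers was 160 CPM in KO LSK against 928 CPM in control LSK and 533 CPM in KO MyePro against 3766 CPM in control MyePro, with 0 of the 8 at 0 counts in any library. That of 6 megakaryocyte markers was 694 CPM in KO LSK against 592 CPM in control LSK and 1450.3 CPM in KO MyePro against 151 CPM in control MyePro, and that of 4 mast cell and basophil markers was 686 CPM in KO LSK against 296 CPM in control LSK and 1135 CPM in KO MyePro against 503.6 CPM in control MyePro. Of the mast cell and basophil list, Prss34 went the other way, with 6.96 CPM in KO LSK against 108 CPM in control LSK and 79.1 CPM in KO MyePro against 172 CPM in control MyePro. The erythroid sum was lower in KO cells of both populations, and the megakaryocyte sum was close to control in KO LSK and far above it in KO MyePro. The 6 mature neutrophil markers summed to 77.0 CPM in KO LSK against 1.70 CPM in control LSK. In MyePro they summed to 299 CPM in KO cells against 10.3 CPM in control cells. S100a8, S100a9 and Retnlg were at 0 in control LSK. S100a8 and S100a9 gave 60.3 and 14.5 CPM of the KO LSK sum. Ltf went the other way in LSK, with 0 counts in KO cells against 12 in control cells. Camp did too, with 1 count in KO LSK against 5 in control LSK. The 6 T and NK cell markers summed to 133 CPM in KO LSK against 8.77 CPM in control LSK and 123 CPM in KO MyePro against 9.83 CPM in control MyePro. Klrb1c and Gzmb made up nearly all of these sums, with 27.8 and 104 CPM in KO LSK against 0.883 and 4.62 CPM in control LSK. Of the T cell markers, Cd8a had 3 counts in KO LSK against 43 in control LSK and 0 in KO MyePro against 7 in control MyePro, and Cd3e and Cd3g had at most 2 counts in any of the 4 libraries, with both at 0 in control LSK. The list of 5 B cell markers went the other way, at 49.0 CPM in KO LSK against 161 CPM in control LSK and 14.2 CPM in KO MyePro against 126 CPM in control MyePro, with Ms4a1 at 0 in all 4 libraries. Macrophage and dendritic cell markers (5 of 6 measured) had 218 CPM in KO LSK against 104 CPM in control LSK. In MyePro they had 348 CPM in KO cells against 125 CPM in control cells, though Csf1r went the other way (76.9 against 87.5 CPM). The 5 stromal and endothelial markers had 214 CPM in KO LSK against 105 CPM in control LSK. In MyePro they had 214 CPM in KO cells against 82.1 CPM in control cells. Pecam1 alone made up most of these 4 sums, with 188 CPM in KO LSK against 98.4 CPM in control LSK. It had 161 CPM in KO MyePro against 78.8 CPM in control MyePro. The labelled populations were marked as their names say: 8 stem cell markers summed to 637 CPM in KO LSK and 898 CPM in control LSK, above 359 CPM in KO MyePro and 429 CPM in control MyePro, while 8 myeloid progenitor markers summed to 6525 CPM in KO MyePro and 11044 CPM in control MyePro, above 2861 CPM in KO LSK and 3182 CPM in control LSK. In LT-HSC the stem cell markers summed to 760.1 and 710.1 CPM in the libraries labelled KO and 832 and 463 CPM in the control libraries. Erythroid markers summed to 58.4 and 60.4 CPM in the libraries labelled KO LT-HSC and 137 and 103 CPM in control LT-HSC. In both libraries labelled KO, 6 of the 8 were below both controls, a pattern of 13.9% of 12844 genes. B cell markers summed to 30.2 and 95.5 CPM in the libraries labelled KO LT-HSC and 39.0 and 351 CPM in control LT-HSC. Ighm alone had 326 CPM in the control library with the highest sum. That library also had the most Bmi1, and a link between them was not tested. Stromal and endothelial markers summed to 40.5 and 35.3 CPM in the libraries labelled KO LT-HSC and 44.7 and 53.7 CPM in control LT-HSC. The sums of the other 6 lists overlapped between the LT-HSC groups.

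The genes whose pattern over the 4 LSK and MyePro libraries was most like that of Pcgf2, Cbx2 and Cbx6, the PRC1 genes with the widest range there, were found among 9822 genes by the root mean square difference of centred log2 CPM. They were Ncs1 (0.123), Matk (0.128) and Zfp445 (0.159) for Pcgf2. For Cbx2 they were Atp10d (0.0335), Btbd3 (0.181) and Pdp2 (0.192), and for Cbx6 they were Serinc3 (0.0486), Chd9 (0.0561) and Map7 (0.0662). Chd9, for one, had 32.2 CPM in KO LSK against 59.9 CPM in control LSK and 23.5 CPM in KO MyePro against 45.6 CPM in control MyePro, the same order of libraries as Cbx6. This likeness rests on 4 libraries.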

How the data were processed

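Of the 14 samples of the series, 8 RNA-seq libraries were used and 6 were not analysed here. Each library has a file of raw counts, as the authors deposited them. Per the labels' protocols, all RNA went through polyA selection in 2 rounds, and LT-HSC RNA alone was amplified. Per the submitters' processing notes, the tools for the series included TopHat2 and HTSeq 0.6.0, and the build was mm10. The strand setting is not known. LSK and MyePro counts are listed by symbol and LT-HSC counts by Ensembl ID, of which 37607 (96.0%) matched a symbol. Entries that name no gene, ERCC spike-ins and an unexplained DPY30 entry were left out of library sizes. Reads without a feature made up 2.40% to 26.0% of the file totals. Positions and sequences are RefSeq, GRCm38.p6.

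LT-HSC counts were fitted with edgeR 4.0.16 (R 4.3.3): TMM, a filter that kept genes with 2 or more of the 4 libraries at 1 CPM or above, quasi-likelihood test, two-sided, Benjamini-Hochberg adjusted p under 0.05. Standard errors come from the log2 fold change and its F statistic. The scripts were tested on simulated data. For the edgeR fit, the check had to be passed only at a smaller spread between libraries than that of these data (common dispersion 0.247). The power of the test at the spread of these data is not given here. The labels give same-numbered LT-HSC libraries the same transplant, which pairs them, and their deviations from group means correlated at 0.292 across 12844 genes. For LSK and MyePro, log2 ratios of TMM-normalized CPM used a prior count of 2, and a gene was counted past 2-fold where its mean reached 5 CPM. Intervals of ratios are exact conditional binomial at 95%. Those of MyePro minus LSK differences in KO effect are 95% normal approximations from the counts. Replicates are pools of mice. DESeq2 1.42.0, other scalings, filters and prior counts, a replicate block and leaving out each LT-HSC library were tried.

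The members and lists (3 of related genes, 10 of markers) were chosen with earlier results of these data known. Named were the 10 genes, Dpy30, up to 4 members per list and comparison past the threshold by size of the log2 value, or else the 2 most highly expressed, and the 3 nearest patterns for 3 genes. Paralog pairs, overlapping genes, sex-linked genes, Cdkn2a and Auts2 against control were added after values were seen.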

Additional observations from a re-analysis of the deposited data

Results flagged for a closer look

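On the TMM scale, for Pcgf2 and Pcgf6, every library labelled KO LT-HSC was above every control LT-HSC library. That order in LT-HSC was held by 13.8% of 12844 genes. In LSK and in MyePro, the KO library was below control for both genes. The log2 values of Pcgf2 were -2.13 in KO LSK, -1.17 in KO MyePro and 0.63 in LT-HSC. Those of Pcgf6 were -0.48 in KO LSK, -0.43 in KO MyePro and 0.58 in LT-HSC. By uncorrected library totals both genes overlapped between the LT-HSC groups, with log2 fold changes of 0.18 for Pcgf2 and 0.17 for Pcgf6. The difference between the populations was not tested. The LT-HSC libraries were amplified and counted on another set of gene IDs. Sex-linked expression differed as well. Y-linked genes summed to 1.45 and 1.91 CPM in the libraries labelled KO LT-HSC and 80.9 and 61.0 CPM in control LT-HSC. In the LSK and MyePro libraries that sum was 128 to 155 CPM. The part of these differences was not tested. In LT-HSC, neither gene passed the Benjamini-Hochberg-adjusted quasi-likelihood test of edgeR. The unadjusted p of that test was 0.305 for Pcgf2 and 0.295 for Pcgf6.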

How the results depend on the processing

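Library totals in place of TMM moved the median of all genes from -0.04 to 0.09 (log2) in KO against control LSK, with 648 genes past 2-fold higher and 457 lower in place of 513 and 556. It left 1 PRC1 gene past 2-fold there, since Cbx6 came to -0.90, and in KO MyePro against KO LSK it left 246 genes higher and 234 lower in place of 326 and 159. A mean of at least 1 CPM in place of 5 counted 2 PRC1 genes in KO MyePro, Pcgf2 joining Cbx2, and all genes past 2-fold came to 2076 in KO LSK, 3278 in KO MyePro, 1825 in control MyePro against LSK and 1327 in KO MyePro against LSK. In LT-HSC, where the edgeR fit reported called 2 genes, the paired fit with transplant as a replicate block called 4, library totals 4, no filter 4, DESeq2 14 and the fit without mitochondrially encoded genes 0. Leaving out 1 library gave 0 to 5. The 10 PRC1 genes were called by 0 of these fits. With library totals, the median log2 fold change of all LT-HSC genes came to -0.35, and those of 2 genes turned to -0.24 for Ring1 and -0.16 for Cbx6. Leaving out 1 library gave -0.025 to 0.37 for Ring1, -0.11 to 0.79 for Cbx6, -0.35 to 0.077 for Phc3, -0.30 to 0.032 for Rnf2, -0.99 to 0.11 for Cbx2, -1.13 to 0.49 for Cbx7 and -0.87 to 0.33 for Bmi1. For the other 3 genes, leaving out 1 library gave 0.30 to 1.09 for Pcgf2, 0.20 to 1.14 for Pcgf6 and -0.84 to -0.49 for Pcgf5, and library totals gave 0.18, 0.17 and -1.07, of the same sign but moved by over 1.5 times for each. The cause of these changes was not tested. With 16 counts of Pcgf2 in KO LSK and 1 library per group, depth limits the LSK and MyePro ratios of the lowest genes.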
